A study of Mus musculus with 2 samples.

Results

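Cadherins and protocadherins were described in nuclei of mouse hindbrain neurons with axons to the lumbar cord. Members were all genes of the deposited count tables whose symbol starts with Cdh and a digit or with Pcdh and which had at least 20 UMIs (unique molecular identifiers, the counted transcripts) over both libraries. Of 91 such rows among 23912 genes, 81 reached that minimum. They comprised 5 classical type I cadherins, 12 type II cadherins, 2 atypical cadherins, 4 delta-1, 5 delta-2 and 2 other non-clustered protocadherins, and 13 alpha, 21 beta and 17 gamma genes of the clustered protocadherins. Just inside the minimum were Cdh19 and Pcdha7 with 20 UMIs each, Cdh3 with 21 and Pcdhb10 with 22. Just outside were Pcdhgb7 with 17 UMIs, Pcdhga4 and Pcdhgb2 with 13 each, Pcdhgb1 with 12, Cdh16 with 11 and Pcdhac1 with 9. Cdh5, Cdh17 and Pcdh12 had 5 UMIs each, and Cdh26 had 0.

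The series holds 1 pooled library of the treatment labelled SNI with brush and 1 of the treatment labelled hot water bath. All mice were of the TRAP2 strain, in which neurons active in a chosen window can be marked, were 8 to 12 weeks old and carried AAV-retro-H2B-GFP, a retrograde virus that labels nuclei of neurons projecting to its injection site in the lumbar cord. Hindbrain between -7.3 and -5.2 mm from bregma was pooled by treatment, marked nuclei were sorted by FACS, and libraries were made with the 10x Genomics 3' kit. How many animals were pooled is not given in the labels. With 1 library per treatment there is no replicate, nuclei are not replicates, and no p-value was computed. All intervals are exact 95% intervals that cover counting error only.

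After removal of 2 and 3 called doublets, the SNI with brush library held 286 nuclei with 11214823 UMIs and the hot water bath library 422 nuclei with 16158704 UMIs. The count tables share 0 cell barcodes. Each nucleus was placed in a transmitter class by 5 genes that are not members. Nuclei with at least 10 UMIs of Tph2, the serotonin-synthesising tryptophan hydroxylase, were called Tph2 nuclei. Of the others, nuclei with at least 3 UMIs of the GABA enzymes Gad1 and Gad2, the glycine transporter Slc6a5 and the vesicular glutamate transporter Slc17a6 were inhibitory where Slc17a6 gave at most 25% of those UMIs and glutamatergic where it gave at least 75%. The SNI with brush library held 3 Tph2, 104 inhibitory and 113 glutamatergic nuclei, and the hot water bath library held 26, 61 and 252. A further 66 and 83 nuclei were mixed or low in these transcripts and enter no class comparison. Median depths were 41951, 31922.5 and 38396 UMIs per nucleus in the Tph2, inhibitory and glutamatergic classes of the SNI with brush library, and 40064, 32375 and 38996 in those of the hot water bath library.

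The class labels were set beside marker lists. The serotonergic list includes Tph2 itself, which defines Tph2 nuclei, so part of its difference between classes was set by that limit. The 7 serotonergic markers summed to 6038 CPM (a gene's summed UMIs scaled to the total UMIs of the class) in Tph2 nuclei, 27.7 CPM in inhibitory and 23.5 CPM in glutamatergic nuclei of the SNI with brush library, and to 4189, 131 and 35.3 CPM in the hot water bath library. Tph2 had a UMI in 4.42% and 4.37% of glutamatergic nuclei of the SNI with brush and hot water bath libraries, and in 3.85% and 11.5% of inhibitory nuclei. Gad2 was seen in 21.2% and 7.94% of glutamatergic nuclei and Slc17a6 in 15.4% and 23.0% of inhibitory nuclei. These shares show how often a gene of another class was seen, and for Gad2 and Slc17a6 the class limits themselves allow some. Besides the class numbers given above, the libraries stood apart in mitochondrial, liver and oligodendrocyte transcripts. Mitochondrial transcripts were 0.511% of UMIs in the SNI with brush library and 0.149% in the hot water bath library. Over 0.1% of UMIs came from liver genes such as albumin in 18 nuclei of the SNI with brush library and 0 of the hot water bath library. Oligodendrocyte markers summed to 180 CPM in inhibitory and 168 CPM in glutamatergic nuclei of the SNI with brush library. In those of the hot water bath library they summed to 94.9 and 74.0 CPM. The part of these differences in the member values was not tested, apart from the alternatives without nuclei high in mitochondrial or liver transcripts.

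Cadherins are calcium-dependent adhesion proteins of the cell surface, and most bind the same cadherin on a neighbouring cell. Classical type I and type II cadherins couple to catenins and the actin cytoskeleton, and neighbouring neuron groups of the hindbrain are known to carry different combinations of them. Non-clustered protocadherins of the delta groups signal through other partners, whereas the clustered protocadherins are expressed in different combinations from cell to cell and serve self-recognition and avoidance between branches of the same neuron.

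Tph2 nuclei carried less of many non-clustered cadherins than glutamatergic nuclei, while members called higher were about as frequent as among all genes. Members and 17985 genes in all were compared between the classes. Of the 81 members, 17 were lower in Tph2 nuclei of the hot water bath library by at least 1.5-fold with an interval that excludes equality, against 11.9% of all genes, and 6 were higher, against 7.63%. Of the 30 members outside the clusters, 16 were lower and 4 higher. Their median log2 ratio was -1.42, or -1.41 with genes at 0 UMIs set at the limit that a count of 0 allows, and that of all genes was -0.08, or 0 with such genes at that limit. Well counted genes were called more often, since of the 4857 genes with at least 1000 UMIs, 21.0% were lower, against 15 of the 20 members at that depth. The 3 Tph2 nuclei of the SNI with brush library gave 13 members lower, against 4.26% of all genes, and 4 higher, against 6.57%. Called the same way in both libraries were 11 members lower, against 2.81% of all genes, and 2 higher, against 2.01%. With nuclei thinned to 9000 UMIs, 6 were lower and 0 higher in both. A single member, Cdh11, was called in opposite directions, against 0.406%.

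The promoter windows of 4 members are shown, 3 called lower in Tph2 than in glutamatergic nuclei, and Cdh22 for contrast. They are the 250 bases before the RefSeq start on GRCm38.p6, read 5′ to 3′ on the strand of the gene, with CpG dinucleotides in capitals. Pcdh7, Cdh20 and Pcdh19 were called lower than in glutamatergic nuclei in both libraries, Pcdh19 in the SNI with brush library on 5 UMIs, and Cdh22 was called higher than in inhibitory nuclei in both.
Pcdh7, plus strand, chr5:57717831-57718080: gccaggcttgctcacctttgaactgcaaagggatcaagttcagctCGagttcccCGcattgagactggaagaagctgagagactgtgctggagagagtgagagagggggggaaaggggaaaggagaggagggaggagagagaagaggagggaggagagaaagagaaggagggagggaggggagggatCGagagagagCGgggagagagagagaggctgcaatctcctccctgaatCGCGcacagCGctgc
Cdh20, plus strand, chr1:104768270-104768519: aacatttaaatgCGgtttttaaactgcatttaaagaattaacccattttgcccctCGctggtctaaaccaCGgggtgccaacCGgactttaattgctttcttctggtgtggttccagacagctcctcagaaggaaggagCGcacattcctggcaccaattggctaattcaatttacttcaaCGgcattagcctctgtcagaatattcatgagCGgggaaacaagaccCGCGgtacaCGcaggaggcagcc
Pcdh19, minus strand, chrX:133688994-133689243: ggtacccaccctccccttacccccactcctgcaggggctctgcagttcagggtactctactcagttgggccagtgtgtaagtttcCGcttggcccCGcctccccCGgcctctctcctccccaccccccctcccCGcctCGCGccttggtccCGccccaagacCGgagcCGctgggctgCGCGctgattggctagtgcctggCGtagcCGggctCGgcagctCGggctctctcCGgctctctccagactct
Cdh22, minus strand, chr2:165234738-165234987: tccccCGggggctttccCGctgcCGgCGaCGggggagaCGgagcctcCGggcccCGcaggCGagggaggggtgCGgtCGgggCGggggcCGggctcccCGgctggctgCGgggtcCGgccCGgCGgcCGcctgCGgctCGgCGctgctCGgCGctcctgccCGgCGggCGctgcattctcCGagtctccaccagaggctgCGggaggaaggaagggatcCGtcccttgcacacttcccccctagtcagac
These windows hold 7, 10, 16 and 30 CpG dinucleotides in that order, against a median of 6 over 32851 promoter windows of the table. Searched on both strands with overlaps allowed, the motif CCGGAA occurs in 12.0% of all windows. The motif AGATAA occurs in 9.99% of them. For TAATTA the share is 4.84%, and 0 of these 4 windows hold any of the 3. The table matched 21 of the 81 members, and all 21 lie outside the clusters.

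Pcdh11x, an X-linked delta-1 protocadherin, was nearly absent from Tph2 nuclei. It had 0 UMIs in the 3 Tph2 nuclei and 2024 UMIs (378 CPM) in the glutamatergic nuclei of the SNI with brush library, a level at least 19.1-fold lower against a floor of 3 counts over the class. The hot water bath library had 2 UMIs in 2 of the 26 Tph2 nuclei (1.83 CPM) and 5827 UMIs (574 CPM) in 214 of the 252 glutamatergic nuclei. The log2 ratio was -7.98 (-11.34 to -6.44) there, the lowest of the members. Inhibitory nuclei held 360 and 534 CPM in the SNI with brush and hot water bath libraries, so that both other classes carried the gene.

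Pcdh7, another delta-1 protocadherin, followed. It had 1, 4 and 34 UMIs in the 3 Tph2 nuclei of the SNI with brush library (258 CPM), against 1505 CPM in glutamatergic nuclei. The 26 Tph2 nuclei of the hot water bath library had 18 UMIs (16.4 CPM), 11 of them in 1 nucleus, and glutamatergic nuclei 1303 CPM. The log2 ratios were -2.53 (-3.04 to -2.09) and -6.27 (-7.06 to -5.65). Pcdh9, the third delta-1 member and the most abundant of all 81, was lower by less. Its level was 2738 CPM in Tph2 and 5369 CPM in glutamatergic nuclei of the SNI with brush library, and 4653 and 8485 CPM in those of the hot water bath library. All 26 Tph2 nuclei held Pcdh9, with 42 to 422 UMIs and a median of 175. Pcdh1, the delta-1 member of epithelia and brain, had 2 and 21 UMIs in Tph2 nuclei of the SNI with brush and hot water bath libraries and was called in neither.

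**Figure D1:**
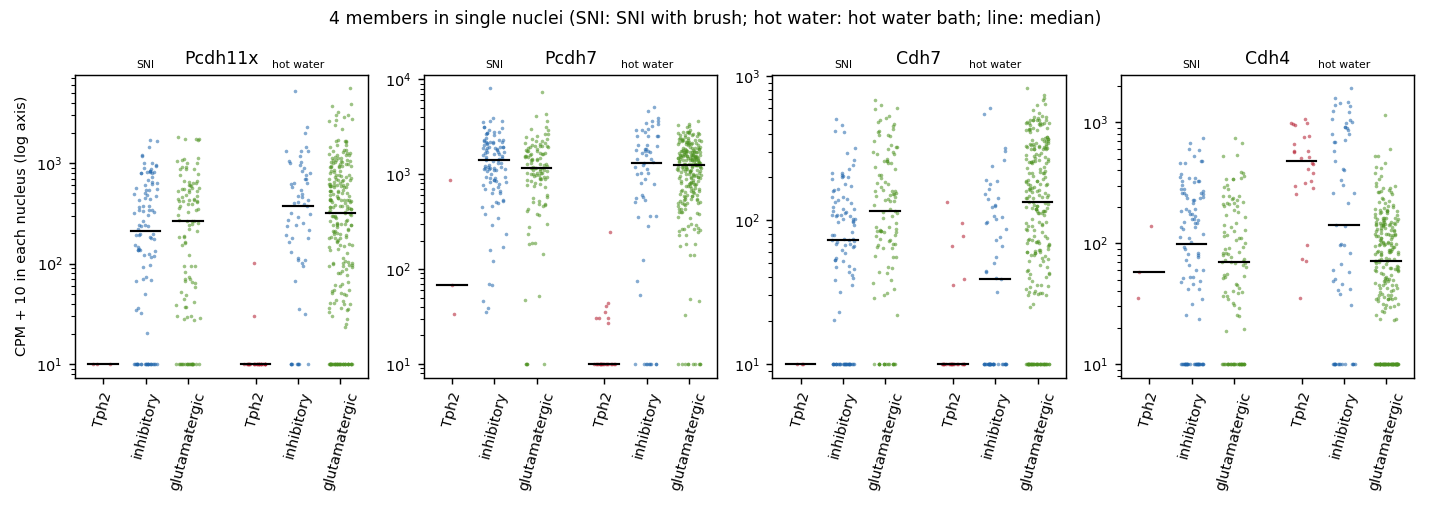
Level of Pcdh11x, Pcdh7, Cdh7 and Cdh4 in each nucleus as CPM plus 10 on a log axis, by class and library, with 1 point per nucleus and a line at the median. Pcdh11x, Pcdh7 and Cdh7 have medians at 0 CPM in the 26 Tph2 nuclei of the hot water bath library, where Cdh4 is seen in all of them.

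Among type II cadherins, which bind within subgroups of the family, 9 of 12 were lower in Tph2 nuclei of the hot water bath library and 5 in both. Cdh20 had 0 UMIs in Tph2 nuclei and 66.9 CPM in glutamatergic nuclei of the SNI with brush library, at least 3.37-fold lower. It had 2 UMIs (1.83 CPM) in Tph2 and 106 CPM in glutamatergic nuclei of the hot water bath library, a log2 ratio of -5.54 (-8.90 to -4.00). Cdh7 had 0 UMIs in Tph2 nuclei and 174 CPM in glutamatergic nuclei of the SNI with brush library, at least 8.78-fold lower. It had 15 UMIs in 6 of 26 Tph2 nuclei (13.7 CPM) and 179 CPM in glutamatergic nuclei of the hot water bath library, a log2 ratio of -3.66 (-4.55 to -2.98). Both genes lie on chromosome 1, Cdh20 at chr1:104768529-104995481 and Cdh7 at chr1:109982431-110140157, in the GENCODE vM21 annotation of GRCm38.

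Cdh9, Cdh10 and Cdh18, which lie on chromosome 15, were the other type II members lower in both libraries. Cdh9 had 26.5 CPM in Tph2 and 101 CPM in glutamatergic nuclei of the SNI with brush library, and 21.0 and 150 CPM in the hot water bath library. Cdh10 had 66.1 CPM in Tph2 and 262 CPM in glutamatergic nuclei of the SNI with brush library, and 66.6 and 337 CPM in the hot water bath library. Cdh18 was abundant in both classes, with 1640 CPM in Tph2 and 2544 CPM in glutamatergic nuclei of the SNI with brush library and 667 and 2787 CPM in the hot water bath library. It had 2, 59 and 187 UMIs in the 3 Tph2 nuclei of the SNI with brush library. Its neighbour Cdh12 was not called, with 549 and 544 CPM in Tph2 nuclei of the SNI with brush and hot water bath libraries, against 419 and 683 CPM in glutamatergic nuclei. The lower call was thus not shared by every type II cadherin on that chromosome.

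Cdh8, Cdh6, Cdh24 and the glycosylphosphatidylinositol-anchored Cdh13 were called lower in Tph2 nuclei of the hot water bath library alone. Cdh8 had 50.2 CPM in Tph2 and 296 CPM in glutamatergic nuclei of the hot water bath library, a log2 ratio of -2.55 (-2.97 to -2.18), and Cdh13 had 68.4 and 538 CPM, a log2 ratio of -2.97 (-3.32 to -2.65). In the SNI with brush library the same ratios were -0.19 (-0.66 to 0.22) for Cdh8 and -0.35 (-0.82 to 0.05) for Cdh13. Its 3 Tph2 nuclei held 24, 21 and 1 UMIs of Cdh8 and 3, 4 and 39 UMIs of Cdh13. All 18 Cdh6 UMIs of Tph2 nuclei in the hot water bath library came from 1 nucleus. Cdh24 had 0 UMIs there and 6.11 CPM in glutamatergic nuclei, at least 2.23-fold lower.

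Cdh11, a type II cadherin also of bone-forming cells, went opposite ways. It had 1, 16 and 23 UMIs in the 3 Tph2 nuclei of the SNI with brush library (265 CPM), against 120 CPM in glutamatergic nuclei, a log2 ratio of 1.16 (0.65 to 1.61). Tph2 nuclei of the hot water bath library held 14 UMIs in 8 of 26 nuclei (12.8 CPM), against 192 CPM in glutamatergic nuclei, a log2 ratio of -3.86 (-4.78 to -3.16). Its high value in the SNI with brush library came from 2 of the 3 nuclei.

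The nucleus with all 18 Cdh6 UMIs also held 167 of the 179 UMIs of Pcdh15, the tip-link protocadherin of hair cells, and the other 25 Tph2 nuclei held 12. It had 76 Tph2 UMIs and 0 UMIs of Slc17a6, Gad2 and Slc6a5. In glutamatergic nuclei Pcdh15 averaged 1063 and 1060 CPM in the SNI with brush and hot water bath libraries, and in Tph2 nuclei 271 and 163 CPM, so the Tph2 level of the hot water bath library rests on this nucleus. Cdh23, the partner of Pcdh15 at the tip link, had 0 and 5 UMIs in Tph2 nuclei of the SNI with brush and hot water bath libraries. A lower call was made in the SNI with brush library, where its bound is at least 1.42-fold lower, and not in the hot water bath library.

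Delta-2 protocadherins, which recruit actin regulators to contacts, split. Pcdh19, X-linked and mutated in a human epilepsy, had 33.1 CPM (5 UMIs) in Tph2 and 82.0 CPM in glutamatergic nuclei of the SNI with brush library, and 2.74 CPM (3 UMIs) and 88.6 CPM in the hot water bath library. The SNI with brush ratio of -1.17 (-2.94 to -0.08) turned to 0.88 (-1.64 to 2.28) when nuclei were thinned to 9000 UMIs, and that of the hot water bath library was -4.80 (-7.30 to -3.46). Pcdh17 was lower in both, with 126 CPM in Tph2 and 253 CPM in glutamatergic nuclei of the SNI with brush library and 108 and 343 CPM in the hot water bath library. Pcdh8 and Pcdh18 were higher in the hot water bath library on 8 and 7 UMIs, with log2 ratios of 1.68 and 1.76 and intervals whose lower ends were 0.26 and 0.21. Pcdh10 was called lower on 3 UMIs in the SNI with brush library, with 19.8 CPM in Tph2 and 87.2 CPM in glutamatergic nuclei. It had 49.3 and 59.2 CPM in those of the hot water bath library and was not called.

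**Figure D2:**
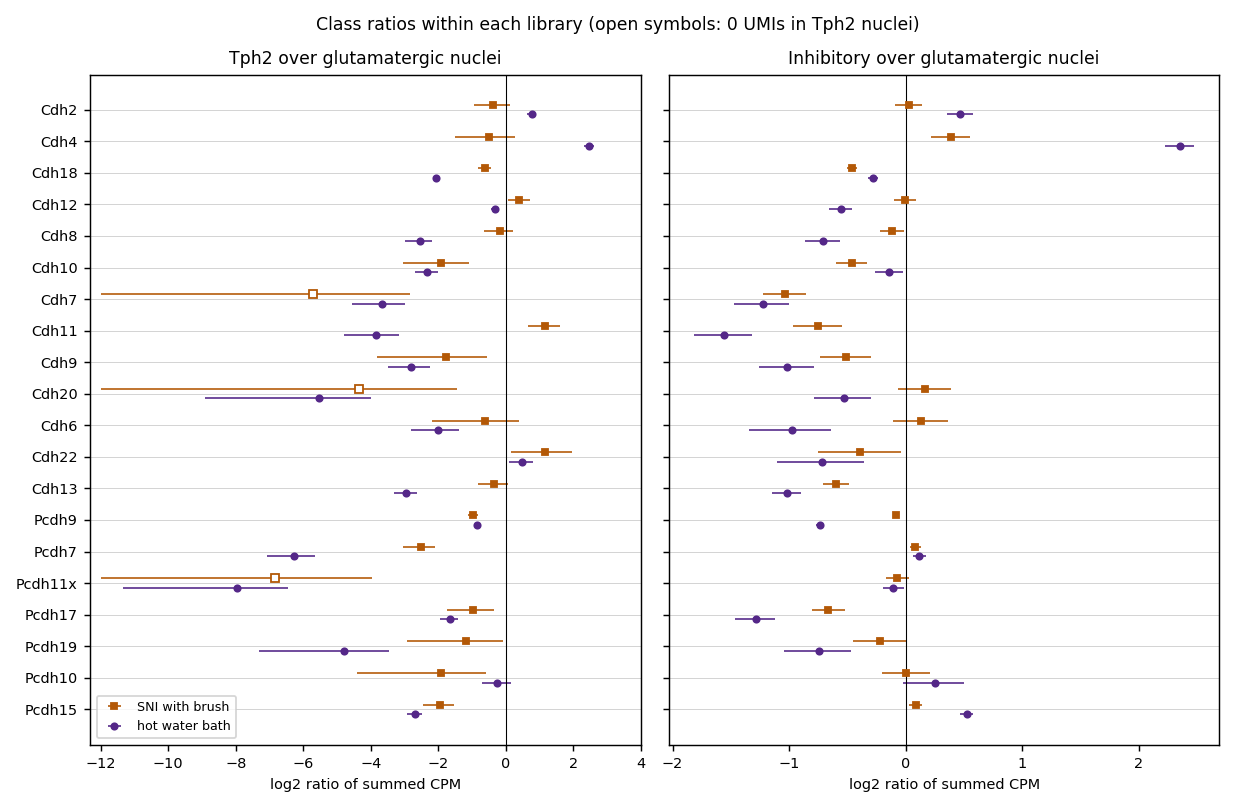
Log2 ratio of summed CPM, Tph2 over glutamatergic nuclei on the left and inhibitory over glutamatergic nuclei on the right, for the 20 members with at least 1000 UMIs, with exact 95% counting intervals. Squares are the SNI with brush library and circles the hot water bath library, and open symbols mark 0 UMIs in Tph2 nuclei, whose intervals have no lower end and are drawn to the edge. On the left, Pcdh11x, Pcdh7, Cdh20, Pcdh19 and Cdh11 lie farthest below 0 in the hot water bath library and Cdh4 is at 2.46.

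No classical type I cadherin was called lower than in glutamatergic nuclei in either library. Cdh4, R-cadherin, had 536 CPM in Tph2 and 97.6 CPM in glutamatergic nuclei of the hot water bath library, a log2 ratio of 2.46 (2.31 to 2.61). It was seen in all 26 Tph2 nuclei, with 1 to 62 UMIs and a median of 21.5, and in 191 of the 252 glutamatergic nuclei with a median of 2. The 3 Tph2 nuclei of the SNI with brush library held 2, 9 and 1 UMIs, giving 79.4 CPM against 116 CPM in glutamatergic nuclei and a log2 ratio of -0.49 (-1.50 to 0.27). The high Cdh4 level was therefore seen in Tph2 nuclei of the hot water bath library and not in the 3 of the other. Cdh2, N-cadherin, had 205 CPM in Tph2 and 269 CPM in glutamatergic nuclei of the SNI with brush library, and 491 and 288 CPM in the hot water bath library, where it was called higher. Cdh15, M-cadherin, had 0 and 2 UMIs in Tph2 nuclei of the SNI with brush and hot water bath libraries, and Cdh1 and Cdh3, E- and P-cadherin, had 0 in both.

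Cdh22, a type II cadherin first described in pituitary and brain, was the type II member called higher in Tph2 than in inhibitory nuclei of both libraries. Cdh12 was also above, by less than 1.5-fold, with log2 ratios of 0.41 (0.06 to 0.72) in the SNI with brush library and 0.23 (0.08 to 0.38) in the hot water bath library. Cdh22 had 79.4 CPM in Tph2, 27.9 CPM in inhibitory and 36.6 CPM in glutamatergic nuclei of the SNI with brush library, and 72.1, 31.6 and 52.2 CPM in those of the hot water bath library. The 3 Tph2 nuclei of the SNI with brush library held 2, 8 and 2 UMIs, and 23 of the 26 of the hot water bath library held at least 1. The Tph2 over inhibitory log2 ratios were 1.56 (0.51 to 2.37) and 1.19 (0.70 to 1.68). The SNI with brush call ended without the nucleus with most UMIs, at 1.07 (-0.99 to 2.31), with at most 0.5% mitochondrial UMIs, at 1.31 (-0.77 to 2.59), and with nuclei thinned to 9000 UMIs, at 1.51 (-1.90 to 3.19). Over glutamatergic nuclei the ratio was called in the SNI with brush library, at 1.17 (0.14 to 1.95), and not in the hot water bath library, at 0.47 (0.10 to 0.81).

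Of the clustered protocadherins, Pcdhac2 stood out in Tph2 nuclei. This C-type alpha member is required in mouse for the even spread of serotonergic axons. It had 3 UMIs in Tph2 and 12 UMIs in glutamatergic nuclei of the SNI with brush library (19.8 and 2.24 CPM), and 14 and 25 UMIs in those of the hot water bath library (12.8 and 2.46 CPM). The log2 ratios were 3.31 (0.68 to 5.04) and 2.40 (1.32 to 3.37). It was seen in 38.5% of the 26 Tph2 nuclei and 7.94% of the 252 glutamatergic nuclei of the hot water bath library, and made up 23.7% (13.6 to 36.6) and 7.18% (4.70 to 10.4) of the UMIs of the alpha cluster in those classes. Against inhibitory nuclei, with 13 and 5 UMIs, the ratios were 2.67 (0.06 to 4.37) and 2.39 (0.92 to 4.30). The counts are small, and without the nucleus with most UMIs of each gene, 0 members were higher in Tph2 nuclei of both libraries.

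A second gene model named Pcdha11, ENSMUSG00000102206, was the other member higher in Tph2 than in glutamatergic nuclei of both libraries, with 4 against 23 UMIs and 13 against 56. Its log2 ratios were 2.76 (0.63 to 4.17) in the SNI with brush library and 1.15 (0.11 to 1.99) in the hot water bath library. The alpha gene models overlap on the same strand, with a median of 53.5% of their exon bases shared with another member, and the gamma models with 40.6%. Counts of single alpha and gamma genes are therefore uncertain, whereas the median is 0% for the beta genes. The beta cluster had 1 UMI in Tph2 nuclei and 390 in glutamatergic nuclei of the SNI with brush library. It reached 63.0 CPM (49.0 to 79.7) in Tph2 and 125 CPM (118 to 132) in glutamatergic nuclei of the hot water bath library, a log2 ratio of -0.97 (-1.36 to -0.63). Pcdhb6 alone was called, with 0 UMIs in Tph2 nuclei and 47 UMIs in glutamatergic nuclei of that library, at least 1.69-fold lower.

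Against inhibitory nuclei, Tph2 nuclei were also low in the delta-1 members Pcdh11x and Pcdh7 and in several type II members. Pcdh9 was called lower in the SNI with brush library alone, and Pcdh1 in neither. Called lower were 14 members in the hot water bath library, against 10.5% of all genes, and 2 were higher, against 5.35%. Of the 4857 genes with at least 1000 UMIs, 20.7% were lower there, against 13 of the 20 members at that depth. The SNI with brush library had 10 lower, against 4.82%, and 4 higher, against 6.07%. Opposite calls were made for Cdh11 alone, against 0.378% of genes, with log2 ratios of 1.92 (1.38 to 2.38) in the SNI with brush library and -2.30 (-3.26 to -1.56) in the hot water bath library. Lower in both were 7, against 2.76%, namely Pcdh11x, Pcdh7, Pcdh15, Cdh20, Cdh7, Cdh9 and Cdh10, and higher in both were Cdh22 and Pcdhac2, against 1.76%. These comparisons share the Tph2 nuclei with those over glutamatergic nuclei. Hot water bath log2 ratios were -7.87 (-11.24 to -6.34) for Pcdh11x and -6.39 (-7.18 to -5.76) for Pcdh7. Cdh4 had 536 CPM in Tph2 and 499 CPM in inhibitory nuclei there, a log2 ratio of 0.10 (-0.04 to 0.25), while in the SNI with brush library it was lower in Tph2 nuclei at -0.87 (-1.89 to -0.12). Gad2 was seen in 96.2% of Tph2 and 96.7% of inhibitory nuclei of the hot water bath library and in 66.7% and 89.4% of those of the SNI with brush library.

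**Figure D3:**
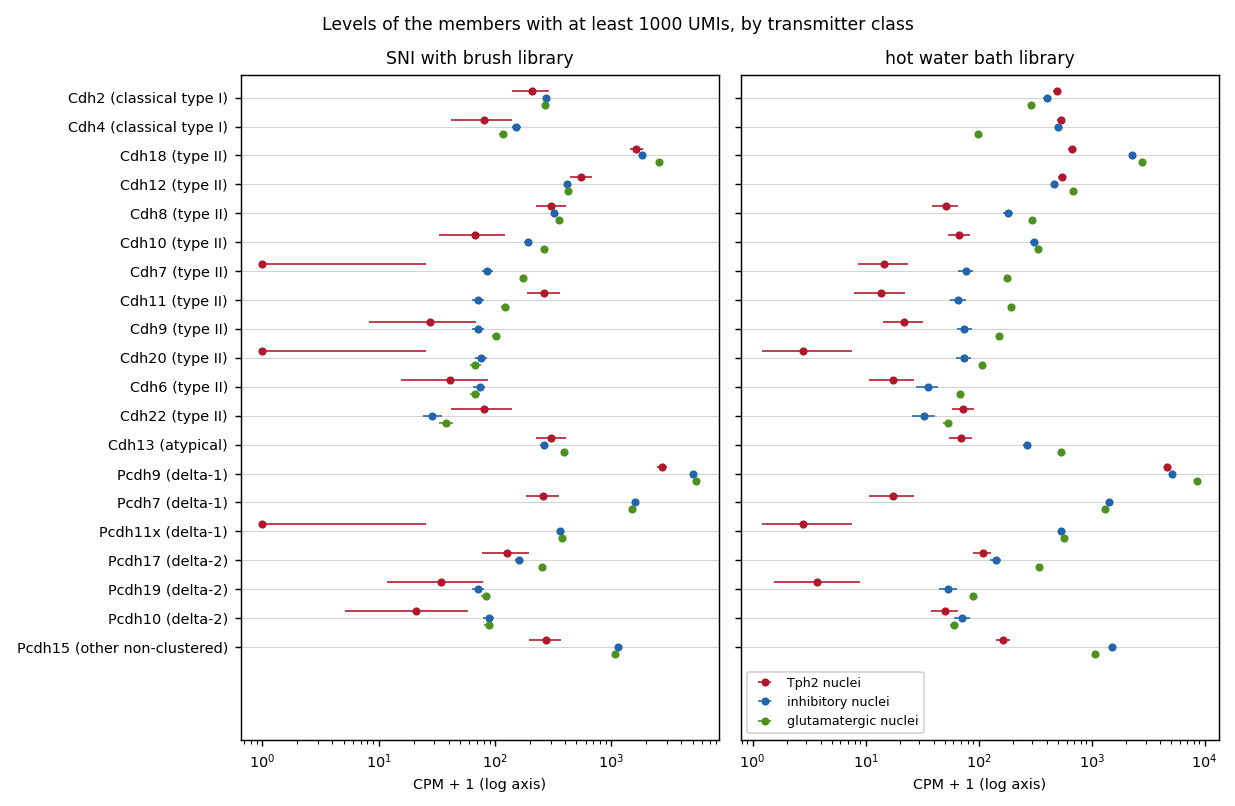
Summed level of the 20 members with at least 1000 UMIs as CPM plus 1 on a log axis, with exact 95% Poisson intervals, in Tph2, inhibitory and glutamatergic nuclei of the SNI with brush library (left) and the hot water bath library (right). Pcdh9 and Cdh18 are highest in every class of both libraries, and Tph2 levels of Pcdh11x, Cdh20, Pcdh7, Cdh7 and Pcdh19 lie left of both other classes, while Cdh4 in the hot water bath library is at 536 CPM in Tph2, 499 CPM in inhibitory and 97.6 CPM in glutamatergic nuclei.

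Inhibitory and glutamatergic nuclei differed less. Inhibitory nuclei of SNI with brush had 5 members lower, against 3.2% of all genes, and 6 higher, against 7.07%. Those of the hot water bath had 11 lower, against 4.26%, and 1 higher, against 5.93%. Lower in both were 4 members, against 0.906% of all genes, and 0 were higher in both, against 1.1%. Opposite calls were made for 0 members, against 0.4%. Cdh11, Cdh7, Cdh13 and Pcdh17 were the 4 lower in both.

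Cdh11 had 70.9 CPM in inhibitory and 120 CPM in glutamatergic nuclei of the SNI with brush library and 65.1 and 192 CPM in the hot water bath library. The log2 ratios were -0.75 (-0.97 to -0.54) and -1.56 (-1.82 to -1.31). Cdh7 had 84.8 CPM in inhibitory and 174 CPM in glutamatergic nuclei of the SNI with brush library and 76.1 and 179 CPM in the hot water bath library, with log2 ratios of -1.04 and -1.23. For both genes the 2 libraries gave inhibitory levels within 10 CPM of each other, but not within parts of the class. In nuclei with at least 3 and with 0 Slc6a5 UMIs, Cdh11 had 60.4 and 149 CPM in the SNI with brush library. It had 113 and 37.9 CPM in those of the hot water bath library. Cdh7 had 84.2 and 62.8 CPM in these groups of the SNI with brush library and 166 and 27.2 CPM in the hot water bath library. Cdh13 ratios were -0.59 (-0.71 to -0.48) and -1.02 (-1.14 to -0.90) in the SNI with brush and hot water bath libraries, and those of Pcdh17 were -0.66 (-0.80 to -0.52) and -1.29 (-1.46 to -1.12). The delta-1 members Pcdh7 and Pcdh11x, so unequal between Tph2 and the rest, differed little here: Pcdh7 had 1596 CPM in inhibitory and 1505 CPM in glutamatergic nuclei of the SNI with brush library and 1413 and 1303 CPM in the hot water bath library, with log2 ratios of 0.08 and 0.12.

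Cdh4 was the member higher in inhibitory nuclei of the hot water bath library, with 499 CPM against 97.6 CPM in glutamatergic nuclei and a log2 ratio of 2.35 (2.23 to 2.48). In the SNI with brush library it had 151 and 116 CPM, a log2 ratio of 0.39 (0.22 to 0.56) that was not called. Of its 1088 UMIs in inhibitory nuclei of the hot water bath library, 927 came from the 40 nuclei with no Slc6a5 UMI (663 CPM) and 153 from the 20 nuclei with at least 3 (204 CPM). Tph2 was seen in 6 of those 40 nuclei and 1 of those 20, and the serotonergic markers summed to 200 CPM and 6.65 CPM; their part in the Cdh4 level was not tested. In the SNI with brush library the 74 glycinergic nuclei had 159 CPM and the 18 nuclei without Slc6a5 had 132 CPM of Cdh4. Cdh4 was thus highest in inhibitory nuclei without Slc6a5 in the hot water bath library.

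The members higher in inhibitory nuclei of the SNI with brush library were Pcdhb14, Pcdhb11, Pcdh8, Pcdh20, Cdh1 and Cdh3, on 57 or fewer UMIs each. Cdh1, E-cadherin of epithelia, had 34 UMIs in that library, 30 of them in the 18 nuclei with liver transcripts, and 0 in the hot water bath library. Cdh3 had 20 UMIs in 6 nuclei, 9 of them in 1 nucleus and 0 in the liver-transcript nuclei, and 1 UMI in the hot water bath library. Both genes reached the 20-UMI minimum through the SNI with brush library alone.

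Within the inhibitory class, glycinergic nuclei, with at least 3 Slc6a5 UMIs, were set against those with 0. They numbered 74 and 18 in the SNI with brush library and 20 and 40 in the hot water bath library, so the class as a whole had another make-up in each. Glycinergic nuclei of the hot water bath library had 11 members higher, against 7.81% of all genes, and 3 lower, against 4.4%. Those of the SNI with brush library had 3 higher, against 2.78%, and 2 lower, against 8.49%. Higher in both were Cdh20 and Pcdh9, against 1.01% of all genes, and 0 were lower in both, against 0.94%. Without the liver-transcript nuclei, 0 were higher in both: the SNI with brush ratio was then 0.57 (0.50 to 0.65) for Pcdh9, under 1.5-fold, and 0.54 (-0.04 to 1.23) for Cdh20. Liver markers summed to 299 CPM in glycinergic and 816 CPM in other inhibitory nuclei of the SNI with brush library, and serotonergic markers to 19.1 and 75.3 CPM there and 6.65 and 200 CPM in the hot water bath library. The part of the serotonergic markers in these results was not tested. Opposite calls were made for Cdh11, against 0.589% of genes, with 60.4 and 149 CPM in glycinergic and other inhibitory nuclei of the SNI with brush library and 113 and 37.9 CPM in those of the hot water bath library.

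Pcdh9 had 5425 CPM in glycinergic and 3390 CPM in other inhibitory nuclei of the SNI with brush library and 7174 and 3823 CPM in the hot water bath library. Its log2 ratios were 0.68 (0.60 to 0.75) and 0.91 (0.85 to 0.96). Cdh20 had 78.5 and 50.2 CPM in those groups of the SNI with brush library and 126 and 45.8 CPM in the hot water bath library. Its log2 ratio in the SNI with brush library, 0.62 (0.04 to 1.32), became -0.02 where nuclei needed at least 10 transmitter UMIs. That of the hot water bath library was 1.46 (0.99 to 1.94). Of the type II cadherins, 6 of 12 were higher in glycinergic nuclei of the hot water bath library, among them Cdh7 with 166 and 27.2 CPM and Cdh8 with 347 and 85.9 CPM in glycinergic and other inhibitory nuclei. Well counted genes were called more often here too. Of the 4857 genes with at least 1000 UMIs, 14.2% were higher, against 10 of the 20 members at that depth. In the SNI with brush library Cdh7 had 84.2 and 62.8 CPM and Cdh8 322 and 310 CPM, and neither was called. Lower in glycinergic nuclei of the hot water bath library were Cdh4, Cdh2 and Pcdhgc4, with log2 ratios of -1.70 (-1.96 to -1.46), -0.72 (-0.95 to -0.49) and -2.47 (-8.41 to -0.31), the last on 1 and 15 UMIs.

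Between the libraries, many clustered protocadherins were lower in glutamatergic nuclei of the SNI with brush library. Lower there were 22 of the 81 members, against 5.54% of all genes, and 3 were higher, against 22.8%. The median log2 ratio of the members was -0.60 and that of all genes 0.21. The typical gene was thus above 0 and the typical member below it. Of the 2659 genes of at least 100 kb, 9.85% were lower and 13.0% higher, with a median of -0.07. Of the 4857 genes with at least 1000 UMIs, 4.92% were lower and 12.4% higher. The 20 members at that depth had 5 lower and 0 higher. Lower calls covered 9 of 21 beta, 5 of 17 gamma, 3 of 13 alpha and 5 of the 30 other members. With nuclei thinned to 9000 UMIs, 8 members were lower. The lowest ratios were -2.54 for Pcdhga10, -1.96 for Pcdhgb4, -1.95 for Pcdhb6 and -1.89 for Pcdha8. Pcdhga2 had 0 UMIs in SNI with brush and 13 in the hot water bath library, at least 2.29-fold lower. Pcdhga10, Pcdhb6, Pcdha8, Pcdhga8 and Pcdhga2 had 4, 10, 6, 12 and 2 UMIs over all SNI with brush nuclei. They are members only through the hot water bath library, so their lower calls are no separate result.

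The beta cluster summed to 72.8 CPM (65.8 to 80.4) in glutamatergic nuclei of the SNI with brush library and 125 CPM (118 to 132) in those of the hot water bath library, a log2 ratio of -0.77 (-0.94 to -0.61). The alpha and gamma clusters gave -0.74 (-1.06 to -0.43) and -0.71 (-0.96 to -0.47). The 3067 genes as long as the beta genes, 2.80 to 8.70 kb, had a median of 0.57 in the same comparison, and 5.25% of them were lower. Among single beta genes, Pcdhb14 had 8.78 CPM in the SNI with brush and 17.5 CPM in the hot water bath library, Pcdhb19 had 7.28 and 13.8 CPM, and Pcdhb6 had 1.12 and 4.63 CPM. In inhibitory nuclei the beta cluster was at 95.3 CPM in the SNI with brush library and 99.5 CPM in the hot water bath library, with a log2 ratio of -0.06 (-0.31 to 0.19). The gamma cluster was at 35.2 and 61.9 CPM there, with -0.82 (-1.17 to -0.46). Whether the beta difference itself differs between classes was not tested.

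**Figure D4:**
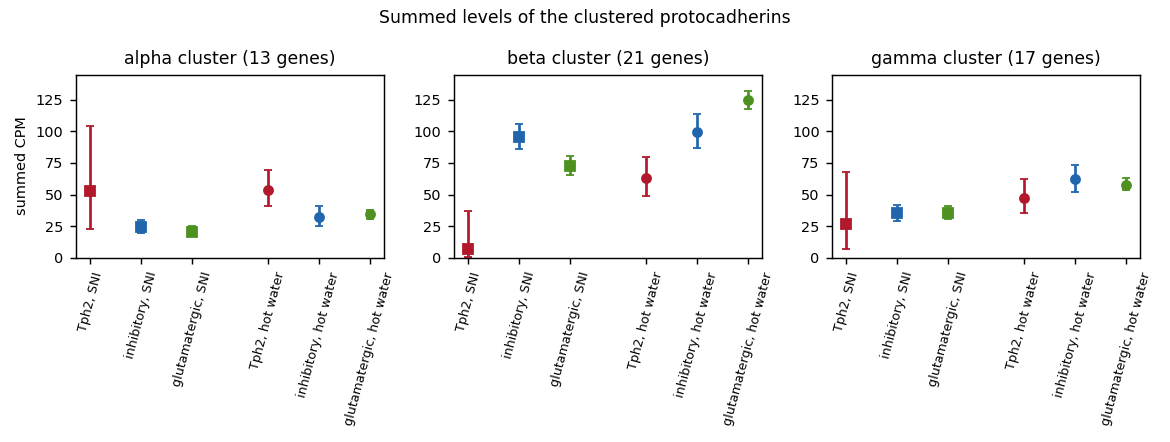
Summed CPM of the alpha, beta and gamma cluster protocadherins in Tph2, inhibitory and glutamatergic nuclei of the SNI with brush library (squares) and the hot water bath library (circles), with exact 95% Poisson intervals. The beta cluster is at 72.8 CPM in glutamatergic nuclei of the SNI with brush library and 125 CPM in those of the hot water bath library, while its inhibitory values overlap.

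Non-clustered members lower in glutamatergic nuclei of the SNI with brush library were Cdh12 (419 CPM there and 683 CPM in the hot water bath library), Cdh11 (120 and 192 CPM), Cdh20 (66.9 and 106 CPM), Pcdh9 (5369 and 8485 CPM) and Pcdh11x (378 and 574 CPM). Their log2 ratios lay between -0.71 and -0.60. Higher were Cdh15, with 10 and 5 UMIs, Cdh23, at 28.2 and 8.28 CPM, and Pcdh1, at 17.9 and 11.5 CPM. A single nucleus held 43.7% of those Cdh23 UMIs of the SNI with brush library. In inhibitory nuclei, 5 members were higher in SNI with brush, against 21.8% of all genes, and 5 lower, against 5.28%. Among genes of at least 100 kb, 13.3% were higher and 14.1% lower in that comparison. Cdh8 had 323 and 181 CPM, Cdh6 72.5 and 34.4 CPM and Cdh23 24.7 and 2.29 CPM in the SNI with brush and hot water bath libraries, while Cdh4 had 151 and 499 CPM and Cdh10 190 and 305 CPM. Pcdh20 and Cdh3 were the other members higher, on 23 and 19 UMIs, and Pcdhga8, Pcdhga9 and Pcdhgb4 the others lower, on 12 or fewer SNI with brush UMIs. Cdh3 is a member only through its SNI with brush UMIs, as given above, so its higher call there is no separate result. The lower call of Pcdhga8, a member only through the hot water bath library, is likewise no separate result. The share of glycinergic nuclei given above differed between the libraries, and its part in these inhibitory values was not tested. Between glycinergic and other inhibitory nuclei, Cdh10 differed little, with log2 ratios of -0.05 in the SNI with brush and -0.07 in the hot water bath library. Cdh4, Cdh6 and Cdh8 were called in that comparison in the hot water bath library alone. Scaling by size factors changed the inhibitory counts to 3 higher and 12 lower.

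Members together gave 0.714%, 1.26% and 1.38% of the UMIs of Tph2, inhibitory and glutamatergic nuclei of the SNI with brush library, and 0.776%, 1.38% and 1.79% in the hot water bath library. Pcdh9 alone gave 0.274%, 0.507% and 0.537%, and 0.465%, 0.509% and 0.848%. Long genes can collect more UMIs from nuclear RNA where reads in introns are counted, which no source used here states, and levels of different genes were compared per length of gene body. Per 100 kb, Pcdh9 still led with 567 CPM in the SNI with brush library and 837 CPM in the hot water bath library. Pcdh7 had 344 and 303 CPM, Pcdh17 had 220 and 307 CPM, Cdh18 had 221 and 261 CPM and the short beta gene Pcdhb17 had 283 and 260 CPM. Pcdh15, whose gene spans 1550 kb, had 67.9 and 76.6 CPM per 100 kb. The delta-1 member Pcdh9 thus ranked highest per length as well as in total.

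Across single glutamatergic nuclei, members differed in how evenly they were spread. A median of 22 members was seen per glutamatergic nucleus of the SNI with brush library and 25 in the hot water bath library. Cdh18 was seen in all 113 and all 252 of them. The 10% of nuclei with most UMIs of a gene held 45.4% of Pcdh11x, 43.9% of Cdh6, 43.2% of Cdh20, 42.6% of Cdh4 and 41.0% of Cdh9 in the hot water bath library, against a median of 29.9% over 6856 genes with at least 200 UMIs. The most even members of the hot water bath library were Cdh2 with 25.5%, Pcdh9 with 25.8%, Pcdh17 with 26.4%, Cdh10 with 26.7% and Pcdh7 with 27.7%. Their evenness was not fully shared by the SNI with brush library. Pcdh7 was at 39.4% there, above the median of 32.1% over all genes of that library. Over the 90th percentile of all genes lay 11 of 19 members in SNI with brush, where the median over 5025 genes was 32.1%, and 5 of 20 in the hot water bath library. The 5 most concentrated members of the hot water bath library were among the 11. After thinning to 9000 UMIs, 13 and 14 members were seen in at least 50% of glutamatergic nuclei of the SNI with brush and hot water bath libraries.

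**Figure D5:**
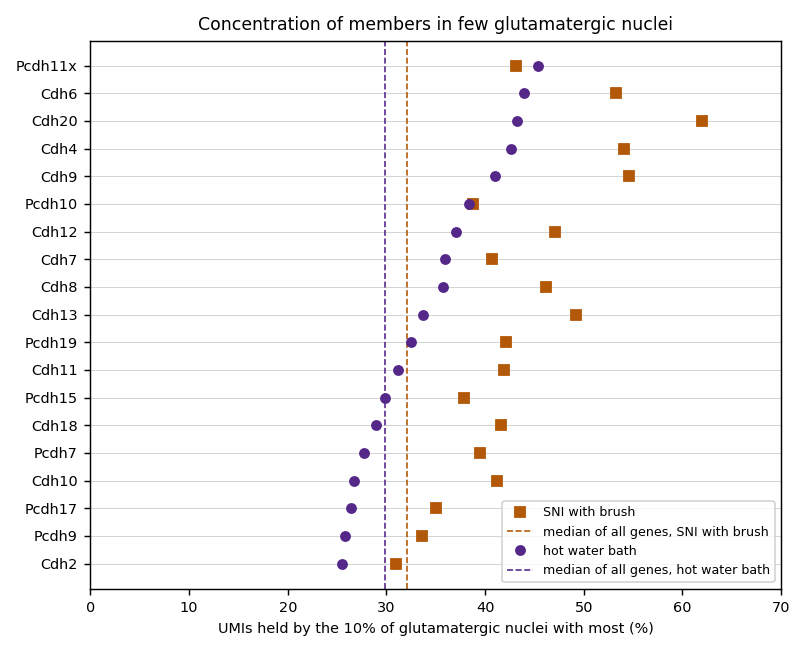
Share of each member's UMIs, in percent, held by the 10% of glutamatergic nuclei with most UMIs of that gene, for members with at least 200 UMIs in both libraries, with squares for the SNI with brush library and circles for the hot water bath library. Dashed lines are the medians over all genes, 32.1% and 29.9%. Pcdh11x, Cdh6, Cdh20, Cdh4 and Cdh9 lie highest in the hot water bath library and Cdh2 and Pcdh9 lowest.

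Pairs of members were compared across glutamatergic nuclei thinned to 9000 UMIs, as a description of 171 pairs that share nuclei and libraries. Cdh12 and Cdh18 correlated at 0.29 over the 113 nuclei of the SNI with brush library and 0.30 over the 252 of the hot water bath library. Cdh11 and Pcdh17 gave 0.20 and 0.27, and Cdh9 and Cdh10 gave 0.58 and 0.18. Cdh7 ran against Pcdh15, at -0.31 and -0.16, and against Cdh4, at -0.23 and -0.21. These values are weak, and counts per nucleus are low.

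Clustered protocadherins were seen in small sets. A glutamatergic nucleus showed a median of 2 of the 21 beta genes in the SNI with brush library and 3 in the hot water bath library, with at most 8 and 13. Of the 48 glutamatergic nuclei of the SNI with brush library in which at least 3 beta genes were seen, 47 had distinct sets, and of the 164 of the hot water bath library 160 had. All 48 and all 25 such inhibitory nuclei had distinct sets. Glutamatergic nuclei held 3.45 and 5.02 beta UMIs on average in the SNI with brush and hot water bath libraries. A gene that is expressed is therefore often not seen. Sets drawn from 21 genes on so few UMIs can nearly all differ through sampling. The counts of distinct sets therefore cannot show which genes a nucleus expresses, and the part of sampling in the variety was not tested.

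Of 45 listed partners and relatives of cadherins, 38 were measured. In both libraries, 1 was called higher and 3 lower in inhibitory than in glutamatergic nuclei, against 1.1% and 0.906% of all genes. Fat4, a giant cadherin of planar polarity, was the one higher, with 21.2 and 11.4 CPM in inhibitory and glutamatergic nuclei of the SNI with brush library and 12.4 and 5.13 CPM in the hot water bath library. No partner was higher in both with means of per-nucleus CPM, with at most 0.5% mitochondrial UMIs, with nuclei thinned to 9000 UMIs or at a 2-fold call. Lower in both were its relative Dchs2 and the adhesion gene Nectin3, with log2 ratios of -0.60 and -0.84 in the SNI with brush library and -1.29 and -1.80 in the hot water bath library. The desmosomal cadherin Dsc2 was also lower in both, with 6 and 37 UMIs in inhibitory and glutamatergic nuclei of the SNI with brush library and 3 and 64 in those of the hot water bath library. The alpha-catenin genes Ctnna2 and Ctnna3 had ratios of -0.17 and 0.39 in the SNI with brush library and 0.46 and -0.35 in the hot water bath library, and were not called.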

How the data were processed

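A count table of mouse hindbrain nuclei was used for each treatment. The deposited values are whole-number UMI counts per gene and nucleus, raw as far as the values show. The barcode lists deposited by the authors name 850 and 723 barcodes for the SNI with brush and hot water bath libraries, more than the count tables hold, and no source used here gives the filter between them. Cell Ranger 5.0, Seurat and the mm10 genome are named per the submitters' processing notes. No source used here says whether introns were counted.

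All nuclei had at least 500 genes and at most 5% mitochondrial UMIs. Scrublet (in scanpy 1.11.5) called the doublets, per library. Other tools were scipy 1.17.1, pandas 2.3.3, numpy 2.4.6 and python 3.11.15. UMIs were summed over the nuclei of a class, and each CPM has an exact Poisson interval. A log2 ratio adds 0.5 UMI to both sums, with exact conditional (Clopper-Pearson) intervals. A call needs a 1.5-fold difference and an interval that excludes equality, and was applied to 17985 genes with at least 20 UMIs. Where a class is at 0, the limit is 3 counts. No test was made, since each treatment has 1 pooled library. Gene models are from GENCODE vM21 and promoter sequences from RefSeq on GRCm38.p6. The computation was tested on simulated counts.

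The members and lists were chosen with earlier results of these data known. Members named in the text are those called the same way in both libraries (at most the 8 with the largest ratios each way), those called in opposite directions, for Tph2 nuclei those called in the hot water bath library, the 5 with the largest ratios each way between libraries per class, and the 5 most and 5 least concentrated. Others, such as Cdh12, Pcdhb17, those called in a single library and those given for their family, were named after their values were seen. Alternatives varied scaling, the UMI minimum, the class limits, doublets, nuclei with mitochondrial or liver transcripts, depth and the fold of a call.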

Additional observations from a re-analysis of the deposited data

Results flagged for a closer look

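Cdh11 changed direction between the libraries in 3 class comparisons. Over glutamatergic nuclei, its log2 ratio in Tph2 nuclei was 1.16 in the SNI with brush library and -3.86 in the hot water bath library. Over inhibitory nuclei it was 1.92 and -2.30. In glycinergic over other inhibitory nuclei it was -1.31 and 1.57. Each of these ratios was called in its own library, and the difference between the libraries was not tested. Opposite calls were made for 0.406%, 0.378% and 0.589% of all genes in these comparisons.

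The 3 Tph2 nuclei of the SNI with brush library held 1, 16 and 23 Cdh11 UMIs (265 CPM), and the 26 of the hot water bath library held 14 UMIs in 8 nuclei (12.8 CPM). Glycinergic and other inhibitory nuclei had 60.4 and 149 CPM in the SNI with brush library and 113 and 37.9 CPM in the hot water bath library. The Tph2 nuclei of the SNI with brush library are so few that 2 nuclei set the value.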

How the results depend on the processing

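No paired analysis was possible because each treatment has 1 library. The 24 counts and 80 member ratios were each recomputed under those of 16 settings that apply to them. Of the alternative counts, 273 stayed within 1.5 times and 55 did not. Of the alternative ratios, 878 stayed within the counting error, 80 moved beyond it, and 2 whose main value was called changed sign. Uncalled ratios that changed sign, such as Cdh4 in Tph2 over glutamatergic nuclei of the SNI with brush library, are among the 878 and 80. Staying within the counting error does not mean that a call was kept. The limits are 1 library per treatment, 3 Tph2 nuclei in the SNI with brush library and low counts of clustered genes.

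With size factors, members higher and lower in SNI with brush inhibitory nuclei over those of the hot water bath numbered 3 and 12. With at least 100 UMIs per member, members higher in Tph2 nuclei of both libraries were 1 over glutamatergic and 1 over inhibitory nuclei, 1 was higher over inhibitory nuclei in the hot water bath library, 12 were lower between libraries in glutamatergic nuclei and 3 higher in inhibitory nuclei. With means of per-nucleus CPM, partner genes in both libraries were 0 higher and 1 lower, 1 member was higher in Tph2 over inhibitory nuclei of both, 4 in glycinergic nuclei of both and 5 in SNI with brush glutamatergic nuclei.

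Without the nucleus with most UMIs of each gene, 3 members were higher in Tph2 over glutamatergic nuclei of the hot water bath library, 0 of both, 0 higher and 11 lower over inhibitory nuclei of both, and 5 higher in glycinergic nuclei of both. With a transmitter share of 90%, 1 was higher in glycinergic nuclei of both. With at least 10 transmitter UMIs, 3 were higher in Tph2 over glutamatergic nuclei of the hot water bath library, 1 of both and 1 over inhibitory nuclei of both, 1 in glycinergic nuclei of both, 2 partner genes were higher in both, 1 and 14 members were higher and lower between libraries in glutamatergic nuclei and 3 lower in inhibitory nuclei. Cdh20 then turned to -0.022 in glycinergic nuclei of the SNI with brush library. With Tph2 nuclei from 5 UMIs, 2 members were higher in inhibitory over glutamatergic nuclei of the hot water bath library and 1 in Tph2 over inhibitory nuclei of both. With 3 more transporter genes in the classes, 0 were higher in glycinergic nuclei of both, as without the liver-transcript nuclei (0).

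With nuclei of at most 0.5% mitochondrial UMIs, 2 members were higher in inhibitory nuclei of the hot water bath library, 0 in Tph2 nuclei of both over glutamatergic and 0 over inhibitory nuclei, 1 in glycinergic nuclei of both, and 0 partner genes in both. Thinned to 9000 UMIs, 2 were higher in inhibitory nuclei of the hot water bath library, 3 in Tph2 over glutamatergic nuclei there, 0 of both, 6 lower of both, 0 higher and 3 lower over inhibitory nuclei of both, 7 higher and 1 lower in glycinergic nuclei of the hot water bath library, 1 higher of both, 8 lower between libraries in glutamatergic nuclei, and 0 and 0 partner genes higher and lower. Pcdh19 then turned to 0.88 in Tph2 over glutamatergic nuclei of the SNI with brush library. At 3000 UMIs, 6 members were seen in at least 50% of glutamatergic nuclei of that library. At a 2-fold call, 6 members were lower in inhibitory nuclei of the hot water bath library and 1 in both, 0 and 1 partner genes were higher and lower, 6 members were higher in glycinergic nuclei of the hot water bath library and 0 of both, and 13 were lower between libraries in glutamatergic nuclei. The cause was not tested in any of these cases, beyond the fewer genes, nuclei or UMIs that a setting leaves.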
